A study of Liolophura hirtosa with 16 samples.

Results

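Of the 493 chiton sequences on the array, 10 were raised to about the same level in the calcium section of the radula and in foot muscle, above both earlier sections. These 10 were chosen from the measured levels. Levels are log2 values of a spot's intensity over the mean intensity of its array, so that 0 is the array mean. They were quantile-normalised and averaged over the probes of a sequence and over the 4 arrays of a tissue. A sequence was kept when calcium and foot muscle each lay at least 0.5 above both immature and iron, which is 1.41-fold, and differed from each other by less than 0.5. The differences that enter these limits are therefore descriptions and carry no test.

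The radula is a ribbon of tooth rows with which chitons scrape rock. New rows form at its inner end, so that successive rows are successive stages of tooth formation. In chitons of this genus the cusps of the major lateral teeth are capped with iron oxide, and calcium phosphate is laid down in the core of the tooth later than the iron. The radula is moved by muscles that attach around it, and the foot is a broad muscle outside the radula.

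The animals were wild adult Acanthopleura hirtosa, given in the labels as Liolophura hirtosa. RNA came from the radula tissue of immature, iron-deposited and calcium-deposited tooth rows and from foot muscle. Each of the 16 single-colour Cy5 arrays held RNA pooled from 3 of 12 animals, with 4 pools per tissue. The groups therefore differ in tissue alone as far as the labels tell, with no treatment or genotype, and the pools average over animals. In such bulk tissue, a higher share of cells with a transcript and more of it per cell cannot be told apart. The deposited files pair no sequence with a gene name. No role is therefore given to any of the 10, and no list of muscle or iron genes was applied. The probe letters were not matched to known sequences here, and the tissue labels were not checked against marker genes.

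The sources disagree on 4 of the 16 arrays, and the 10 sequences depend on which source is followed. The value-table columns of immature replicates 2 and 4 matched the scanner files recorded for calcium replicates 2 and 4, and the reverse. The other 12 columns matched their own files. Here the value table is followed, because it gave the rule its values. In it, arrays of the immature section correlated across the 493 sequences at a Pearson r of 0.988 to 0.996 with each other and at 0.685 to 0.726 with calcium arrays. Leaving out the 4 disputed arrays (n = 2 for immature and calcium) kept 8 of the 10. The exceptions were Contig[0261], with calcium 0.58 below foot muscle, and PlateF-B3-5-SMART, with a rise of 0.48. With the scanner files as recorded, 0 of the 10 met the rule, and the immature and calcium means nearly coincided. The smallest rise of calcium and foot muscle over immature and iron lay between -0.05 and 0.07 for all 10.

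The 10 sequences were 4 contigs and 6 single clones, among 109 contigs and 384 clones in all. They carried 42 of the 2240 probes. The probe with the largest rise on each is printed here, because these letters are the only identity the files give. They are as deposited, 5′ to 3′, and the sources used here do not give their strand relative to the RNA.

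PlateE-C4-5-SMART, bases 29 to 63: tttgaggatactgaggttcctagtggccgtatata
Contig[0261], bases 51 to 88: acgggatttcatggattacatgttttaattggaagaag
Contig[0031], bases 812 to 846: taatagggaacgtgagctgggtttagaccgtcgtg
PlateC-A5-5-SMART, bases 217 to 251: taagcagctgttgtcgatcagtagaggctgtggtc
PlateD-G9-5-SMART, bases 81 to 115: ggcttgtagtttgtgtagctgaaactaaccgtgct
Contig[0185], bases 492 to 529: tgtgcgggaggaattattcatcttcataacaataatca
Contig[0149], bases 735 to 769: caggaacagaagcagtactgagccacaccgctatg
PlateB-E1-5-SMART, bases 77 to 111: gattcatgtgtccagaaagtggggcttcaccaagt
PlateF-B3-5-SMART, bases 128 to 162: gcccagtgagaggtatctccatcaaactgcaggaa
PlateC-C4-5-SMART, bases 137 to 171: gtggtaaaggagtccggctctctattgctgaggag

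Positions are bases within each sequence, not places in a genome. The sequences were 257 to 1171 nt long, with a median of 474.5 nt against 606 nt for all 493. Their probes held a median of 46.4% G and C against 41.8% for all sequences. They split by base composition. Contig[0261], Contig[0185], PlateE-C4-5-SMART and PlateD-G9-5-SMART had 36.5% to 42.1% G and C over their probes, and the other 6 had 45.7% to 48.0%. The longest run of identical bases between probes of different members, on either strand, was 10. No 2 members were therefore linked by shared probe sequence. The longest run with a probe of any other sequence was 15 bases, between Contig[0031] at bases 197 to 231 and a probe of Contig[0012].

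In immature teeth, 8 of the 10 had a mean above the array mean, as did 62 of all 493 sequences. PlateC-A5-5-SMART was the dimmest there, at -1.32, and PlateB-E1-5-SMART lay at -0.04. The rise of a sequence is given below as its margin, the lower of the calcium and foot muscle means minus the higher of the immature and iron means. Margins ran from 0.53 to 1.08, or 1.44-fold to 2.11-fold.

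PlateE-C4-5-SMART, a clone of 257 nt with 2 probes, had the largest margin, 1.08. Its 4 immature arrays read 2.22, 2.23, 2.53 and 2.29, and its iron arrays 2.15, 2.46, 2.44 and 2.49. Calcium arrays read 3.28, 3.31, 3.76 and 3.49, and foot muscle arrays 3.39, 3.77, 3.85 and 3.56. All 8 arrays of the raised tissues lay above all 8 of the other tissues, and calcium overlapped foot muscle.

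Contig[0261], of 339 nt with 2 probes, had nearly the same margin, 1.07, and by far the widest spread. Immature arrays read 1.39, 1.89, 1.58 and 2.03, and iron arrays 1.35, 1.48, 2.29 and 2.34. Calcium arrays read 1.80, 3.04, 3.65 and 3.23, and foot muscle arrays 2.49, 3.64, 4.08 and 3.04. Calcium replicate 1 thus lay below 2 of the iron arrays and 2 of the immature arrays, which made Contig[0261] the single member whose raised and lower tissues overlapped. The SD was 0.80 in calcium and 0.70 in foot muscle (n = 4 each).

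Contig[0031] was the longest member, at 1171 nt, and had a margin of 1.02. Immature arrays read 0.30, 0.12, 0.15 and 0.02, and iron arrays 0.31, 0.21, 0.10 and 0.07. Calcium arrays read 1.42, 1.22, 1.05 and 1.08, and foot muscle arrays 1.74, 1.52, 1.54 and 1.50. The earlier sections overlapped fully, and every foot muscle array lay above every calcium array. Calcium was 0.38 below foot muscle on the mean.

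PlateC-A5-5-SMART had a margin of 1.01. Immature arrays read -1.37, -1.24, -1.25 and -1.40, and iron arrays -0.90, -0.96, -0.73 and -0.90. Calcium arrays read 0.26, 0.14, 0.41 and 0.42, and foot muscle arrays 0.25, 0.01, 0.13 and 0.17. Here iron lay above immature without overlap, and calcium was 0.17 above foot muscle, the largest such excess among the 10.

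PlateD-G9-5-SMART had a margin of 0.86. Immature arrays read 1.69, 1.72, 1.93 and 1.87, and iron arrays 1.79, 1.83, 1.95 and 1.84. Calcium arrays read 2.53, 2.64, 2.93 and 2.76, and foot muscle arrays 2.93, 3.06, 3.33 and 3.29. Calcium was 0.44 below foot muscle, closer to the limit of 0.5 than any other member, and no foot muscle array lay below a calcium array.

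The remaining 5 had margins of 0.73 for Contig[0185], 0.70 for Contig[0149], 0.56 for PlateB-E1-5-SMART, 0.56 for PlateF-B3-5-SMART and 0.53 for PlateC-C4-5-SMART. Contig[0185] went from 0.05 ± 0.12 in immature and 0.13 ± 0.19 in iron to 0.86 ± 0.27 in calcium and 1.15 ± 0.19 in foot muscle (SD, n = 4). Contig[0149] had the same mean of 0.84 in calcium and in foot muscle, against 0.06 in immature and 0.14 in iron. PlateB-E1-5-SMART had 0.53 ± 0.25 in calcium and 0.59 ± 0.08 in foot muscle (SD, n = 4), where its lowest calcium array was 0.28 and its highest iron array 0.15. PlateF-B3-5-SMART had 0.98 in calcium and 1.02 in foot muscle, over 0.42 in immature and 0.40 in iron. PlateC-C4-5-SMART had 1.29 in calcium and 1.25 in foot muscle, over 0.53 in immature and 0.72 in iron. Its lowest calcium array, at 1.06, was 0.17 above its highest iron array.

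**Figure D1:**
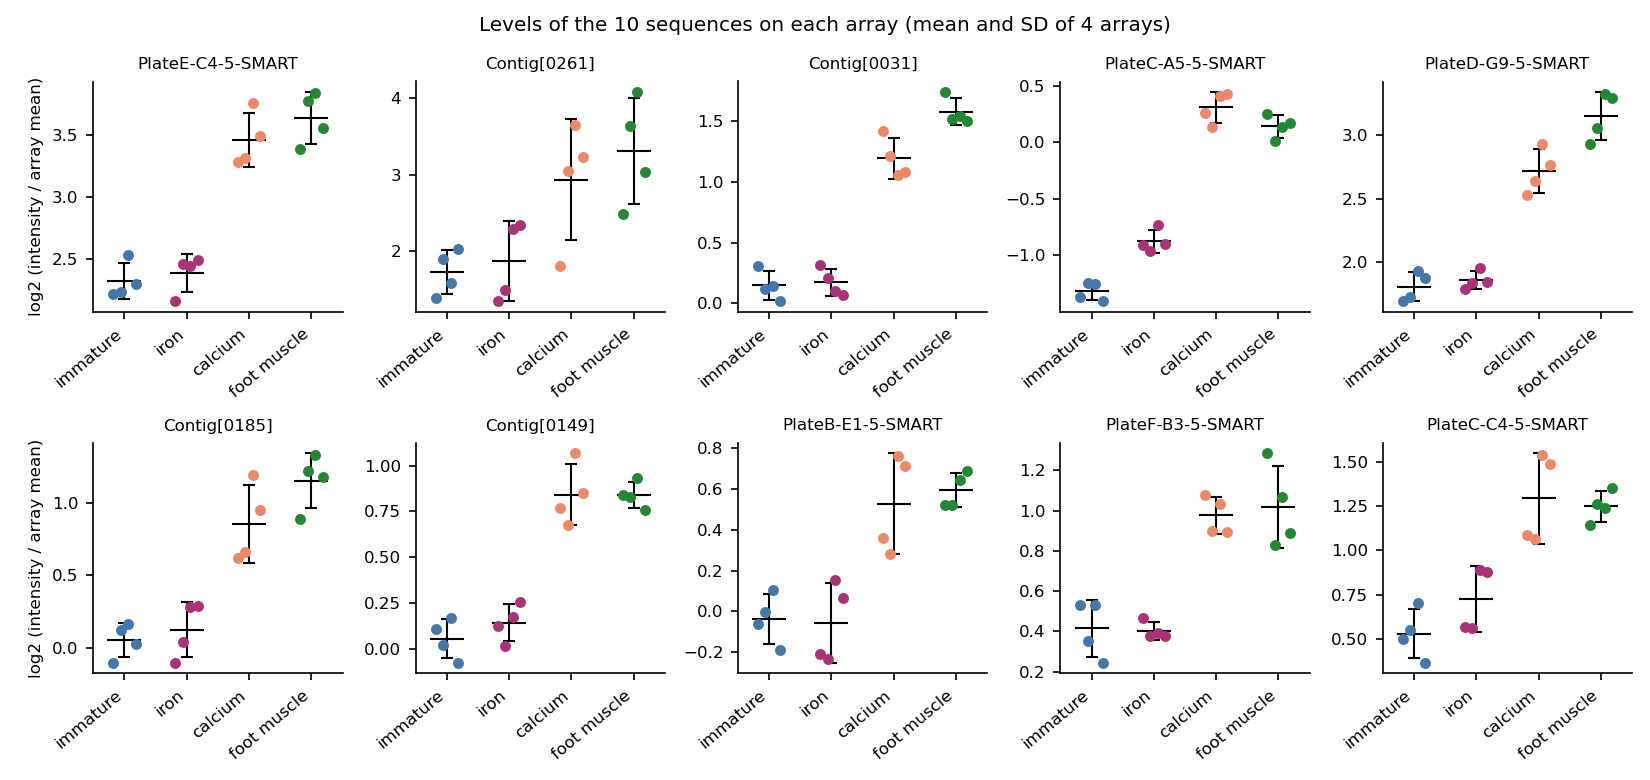
Each panel plots the log2 level of a sequence over the array mean (vertical axis, scaled per panel) on each array, with 4 arrays per tissue as points and their mean and SD as bars. The raised tissues lie clear of the others in all panels but that of Contig[0261], where calcium replicate 1 reads 1.80 among iron arrays of up to 2.34 and immature arrays of up to 2.03.

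Over these tissues, all 8 calcium and foot muscle arrays lay above all 8 immature and iron arrays for 9 of the 10 sequences. That held for 10.1% of all 493, and the rule used this contrast, so nothing is read from it. Both tissues were raised by 0.5 or more in 20 sequences, or 4.06% of all. Besides the 10, foot muscle exceeded calcium by 0.5 or more in 9 of the 20 and calcium exceeded foot muscle in 1. Within the 10, foot muscle had the higher mean in 7. The difference of calcium from foot muscle ran from -0.44 to 0.17.

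The limits cut through a continuous range. PlateC-C4-5-SMART was just inside with a margin of 0.53, as were PlateF-B3-5-SMART and PlateB-E1-5-SMART. Just outside were PlateA-C3-5-SMART with a margin of 0.49, PlateC-E6-5-SMART with 0.48, and Contig[0017], whose margin was 0.66 but whose calcium mean was 0.51 below foot muscle. A rise of 1 in place of 0.5 would have kept 4 sequences, the first 4 described here. A limit of 0.25 in place of 0.5 on the difference of calcium and foot muscle would have kept 6. Leaving out calcium replicate 3 alone left 6 sequences under the rule, all of them among the 10.

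**Figure D2:**
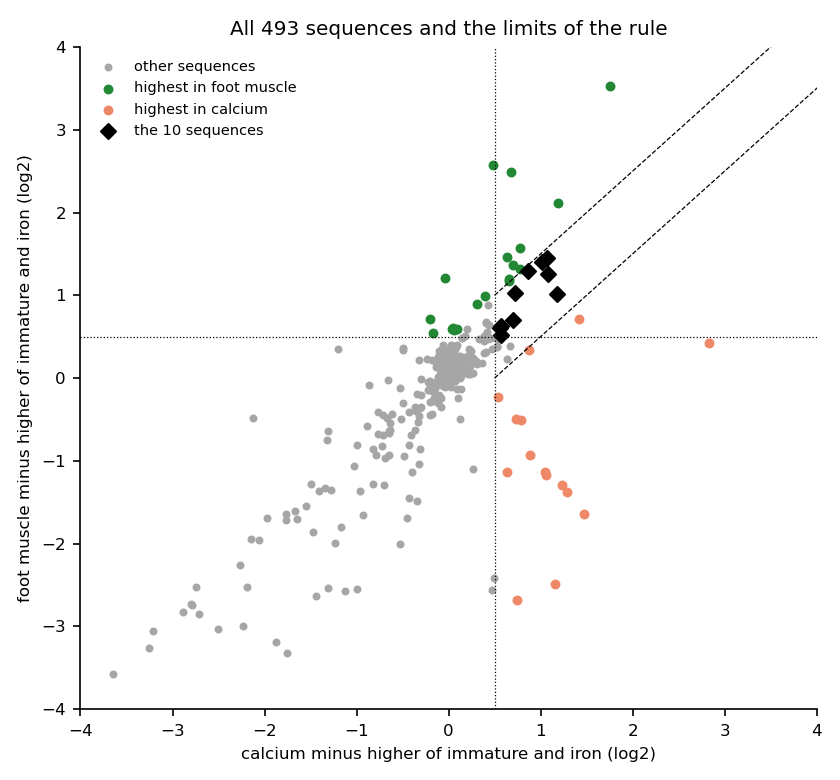
Each point is 1 of the 493 sequences, placed by the log2 difference of its calcium mean (horizontal) and its foot muscle mean (vertical) from the higher of its immature and iron means. Dotted lines mark the rise of 0.5, dashed lines a difference of 0.5 between the raised tissues, and 5 sequences lie outside the axes. The 10 sequences lie between the dashed lines, and of the 20 sequences raised in both tissues 16 have the higher mean in foot muscle.

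The scaling between arrays bore on the size of the rise. Under quantile scaling, the mean of calcium and foot muscle minus that of immature and iron had a median of 1.01 over the 10 sequences. It was 0.70 under median scaling and 0.61 under cyclic loess. Every one of the 10 kept a margin above 0 under all 5 scalings. The whole rule was met under each of them by 3: Contig[0031], Contig[0261] and Contig[0185]. With the median over probes in place of their mean, under quantile scaling, 7 of the 10 met the rule. Contig[0031] then did not, with calcium minus foot muscle at -0.66. PlateC-C4-5-SMART had the smallest margin, 0.01 under median scaling. The 10 were chosen for this same difference, so their distance from other sequences is not a result. The 48 other sequences brighter than the array mean moved with the scaling too. Their median difference was 0.20 under quantile scaling, 0.01 under median scaling and -0.02 under loess. The lowest of the 10 had 0.59, 0.33 and 0.28 under the same scalings.

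The average over probes hid differences between them. Singly, 27 of the 42 probes met the whole rule, 32 had a margin of 0.5 or more, and 41 had one above 0. Probe margins had a median of 0.70 and ran from -0.02 to 1.33. On 26 of the 42 probes, all 8 raised arrays lay above the other 8, against 4.87% of all 2240 probes. The rule used this contrast through the sequence means, so that share is not a result. All 5 probes of Contig[0031] and all 4 of PlateC-A5-5-SMART were among the 26. PlateB-E1-5-SMART and PlateE-C4-5-SMART had 1 each, and Contig[0261] had none.

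The 2 probes with the smallest margins were dim. On Contig[0185], the probe at bases 309 to 344 had means of -1.98 in immature, -1.98 in iron, -1.75 in calcium and -2.00 in foot muscle, where the median of all probes was -1.47 and the 5th percentile -2.09. The other 4 probes of Contig[0185] had margins of 0.61 to 0.98. The probe of PlateB-E1-5-SMART at bases 221 to 255 was nearly as dim, with a margin of 0.07. The 4 probes of PlateC-A5-5-SMART lay at -1.63 to -1.15 in immature teeth and had margins of 0.78 to 1.16. The brighter probe of PlateB-E1-5-SMART at bases 177 to 211, at 0.24, had 0.40. Whether level bears on the margin was not tested. Among the 23 member probes at or above the array mean in immature teeth, the median margin was 0.80, and among the 19 below it 0.59. The files hold no background readings, so no spot can be called above or below background.

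**Figure D3:**
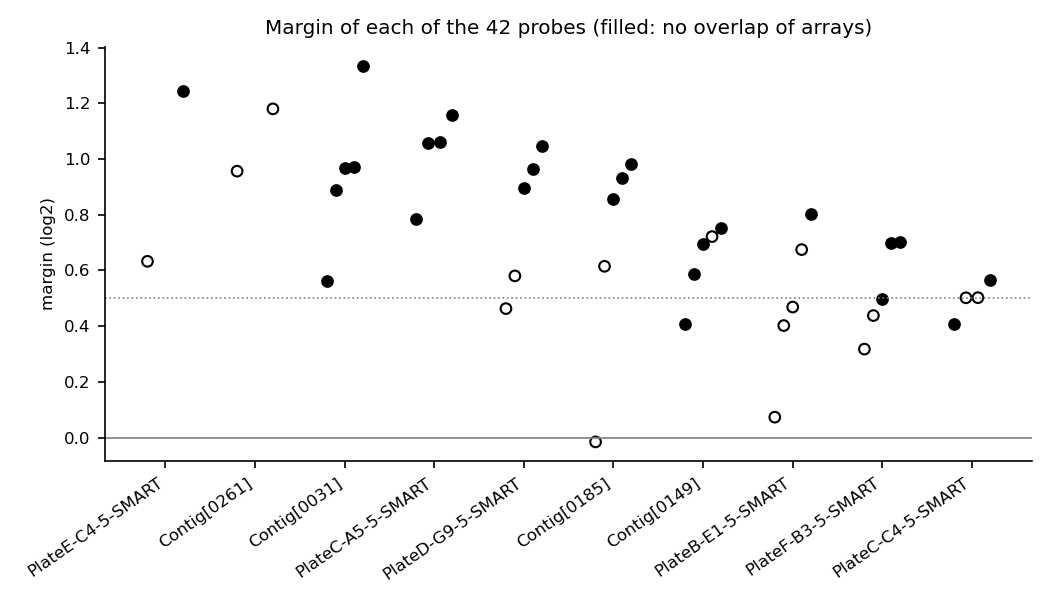
Each point is 1 of the 42 probes, with its margin on the log2 scale (vertical) under its sequence (horizontal). Filled points are the 26 probes whose 8 calcium and foot muscle arrays all lie above the other 8 arrays, and open points the rest. The dotted line is the limit of 0.5, and the lowest point is the dim probe of Contig[0185].

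Probes that overlap share part of their target and are not separate measurements. Among the members, 7 pairs of probes overlapped, by 3 to 19 bases. The longest overlap lay on PlateD-G9-5-SMART. Its probes are printed with the shared bases in capitals, a pair chosen after its values were seen.

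PlateD-G9-5-SMART, bases 343 to 377: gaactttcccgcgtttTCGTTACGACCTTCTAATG
PlateD-G9-5-SMART, bases 359 to 396: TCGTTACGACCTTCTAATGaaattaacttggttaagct

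The first had a margin of 0.89 with no overlap of arrays. The second, with 34.2% G and C against 45.7%, had 0.46 and its arrays overlapped. Both had calcium below foot muscle, by 0.54 and by 0.65. The probes of Contig[0031] differed in another respect, the difference of calcium from foot muscle. Its 4 probes between bases 780 and 1002 had calcium 0.16 to 0.33 below foot muscle. The probe at bases 197 to 231, the one that shares 15 bases with Contig[0012], had calcium 0.92 below. Contig[0012] itself had a margin of 0.66, with calcium 0.54 below foot muscle.

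The rule set no direct limit on the difference between iron and immature teeth, and limma was applied to that difference. The rule did use both means, since each had to lie at least 0.5 below calcium and foot muscle. A sequence already near its calcium level in iron was thereby left out, and the p-values below carry this limit. Only PlateC-A5-5-SMART was called. Its mean rose from -1.32 ± 0.08 in immature to -0.87 ± 0.10 in iron (SD, n = 4), or 1.36-fold (log2 0.44, SE 0.07, limma adjusted p = 8.46e-05), and 4 of 4 iron arrays lay above every immature array, as in 18.1% of all sequences. From iron it rose again to 0.31 in calcium, a step the rule required. Over all 493 sequences, which the rule did not limit, limma called 149, or 30.2%, so that 1 of 10 is not a large share. Without the disputed arrays the difference was 0.42 with a limma adjusted p of 0.00144. The call ended under median scaling (log2 0.55, limma adjusted p = 0.122), and with the scanner files as recorded the sign turned (log2 -0.36, limma adjusted p = 0.742).

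For the other 9 no difference passed. The nearest was PlateC-C4-5-SMART, with iron 0.19 above immature (95% interval -0.05 to 0.44, limma adjusted p = 0.280). Contig[0261] had the widest interval, -0.67 to 0.96, so that a change of 1.5-fold either way cannot be set aside there. PlateF-B3-5-SMART and PlateB-E1-5-SMART had iron at 0.01 and 0.02 below immature, with intervals of -0.20 to 0.18 and -0.26 to 0.22. The size of the difference had a median of 0.07 over the 10 and of 0.08 over all 493. Under quantile scaling, iron had the higher mean in 8 of the 10 and in 215 of all 493. Among the 10, this direction depended on the scaling. Under cyclic loess iron was higher only for PlateC-A5-5-SMART, Contig[0149] and PlateC-C4-5-SMART, by 0.483, 0.0164 and 0.064. Under 75th percentile scaling it was higher only for these and for Contig[0261], there by 0.0032. With no further scaling it was higher for all but PlateD-G9-5-SMART, at -0.0483.

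Probe by probe, 3 of the 42 were called between iron and immature, against 22.6% of all 2240 probes. All 3 lay on PlateC-A5-5-SMART, at bases 161 to 195, 217 to 251 and 449 to 483, with log2 differences of 0.40, 0.65 and 0.52. Its probe at bases 17 to 51 was the dimmest and had 0.20 (limma adjusted p = 0.562). With the replicate number as a block, 8 of the 42 were called, against 28.2% of all probes. These were the same 3 and 5 on other members: 2 on Contig[0031] and 1 each on PlateE-C4-5-SMART, PlateD-G9-5-SMART and PlateC-C4-5-SMART, all higher in iron by 0.19 to 0.33.

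**Figure D4:**
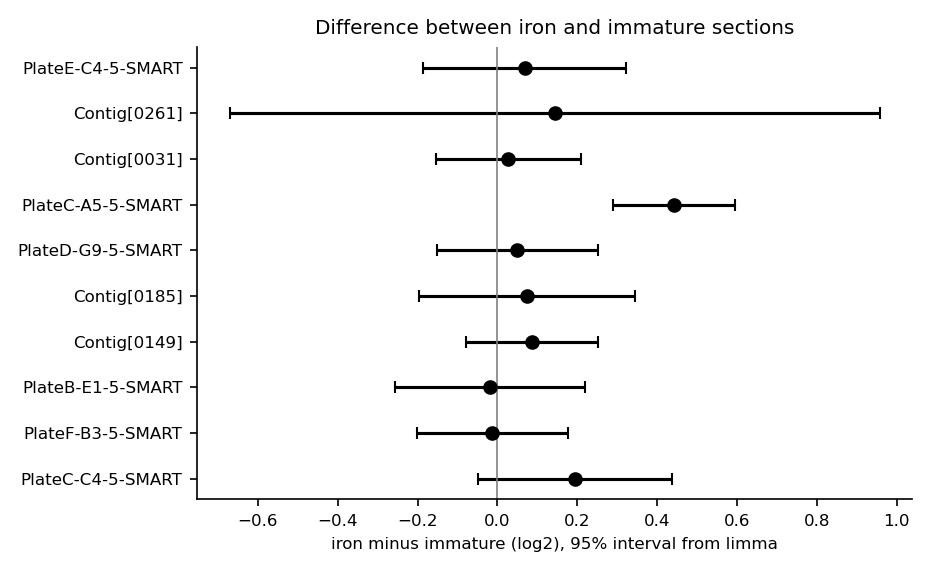
Points give the log2 difference of iron minus immature for each sequence (horizontal) with the 95% interval from limma as bars. The interval of PlateC-A5-5-SMART, 0.29 to 0.59, lies clear of 0, and the other 9 intervals span 0.

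The rule used tissue means, so how single arrays departed from those means was not fixed by it. For 8 of the 10 sequences the departures correlated positively in all 28 pairs, with a Pearson r of 0.11 to 0.97 across the 16 arrays, and Contig[0031] and PlateF-B3-5-SMART often ran the other way. Averaged over all 10, calcium replicates 1 to 4 lay -0.19, -0.12, 0.23 and 0.08 from their tissue mean, and foot muscle replicates -0.12, -0.00, 0.15 and -0.03. The sequences highest in calcium had -0.11, -0.07, 0.16 and 0.02 on the calcium arrays, and those highest in foot muscle had -0.04, -0.06, 0.15 and -0.05 on the foot muscle arrays, so that replicate 3 was highest there too. Across the 16 arrays, the deviations of the 45 pairs of members had a median Pearson r of 0.54, and 51.1% of pairs were above 0.5. Over all pairs of the 493 sequences the median was -0.00 and 17.6% were above 0.5. The members were also brighter, with a median level of 0.74 against -1.34 for all sequences. These are descriptions, since all points share the same arrays.

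Some members on the same side differed in base composition. The 4 sequences low in G and C correlated with each other at 0.69 to 0.88, and PlateB-E1-5-SMART and PlateC-C4-5-SMART, higher in G and C, correlated with these 4 at 0.54 to 0.84. Contig[0031] had a negative r with 8 of the 9 others, at -0.86 to -0.68 with the 4 low in G and C, and was on the side of PlateF-B3-5-SMART, at 0.66. PlateF-B3-5-SMART had a negative r with 5 of the 9. PlateB-E1-5-SMART and PlateC-C4-5-SMART followed each other most closely, at 0.97. Contig[0261] was the most extreme. Its replicate 1 was below the tissue mean in each tissue, by 0.34 in immature, 0.52 in iron, 1.13 in calcium and 0.82 in foot muscle. Contig[0031] in replicate 1 was above it in each, by 0.14 to 0.23, and so was PlateF-B3-5-SMART, by 0.06 to 0.27.

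Outside the 10, levels moved with base composition and replicate number. The 204 probes of other sequences with at least 50% G and C averaged 0.08 to 0.11 above their tissue means in the 4 arrays of replicate 1. In the other 12 arrays they averaged between -0.07 and 0.02. The 690 other probes below 40% averaged -0.06 to -0.01 in replicate 1 and -0.02 to 0.03 elsewhere. Its part in the members' deviations was not tested, and the labels do not say what arrays of 1 replicate number share.

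**Figure D5:**
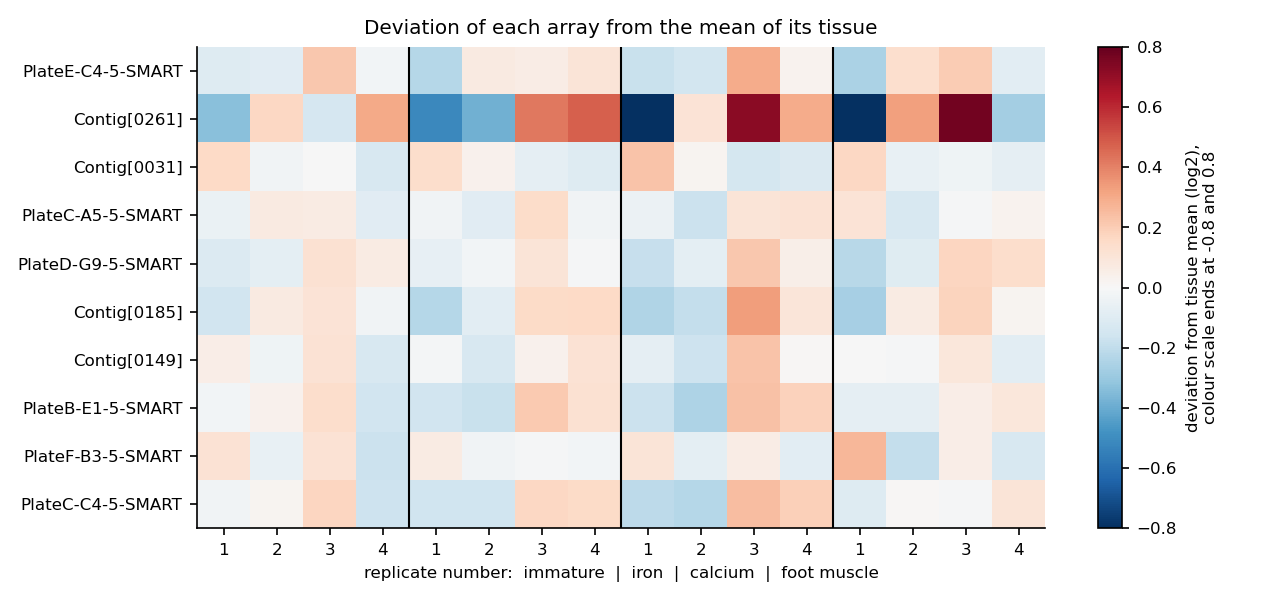
Rows are the 10 sequences and columns the 16 arrays by tissue and replicate number, coloured by the log2 deviation from the mean of the tissue. Colours end at -0.8 and 0.8, which calcium replicate 1 and foot muscle replicate 1 of Contig[0261] exceed. Replicate 1 is below the tissue mean in most rows of each tissue and above it for Contig[0031].

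Sequences highest in foot muscle often had their next highest level in the calcium section, in 16 of 19, where 47.5% of all sequences had calcium above immature and iron. This set of 19 had foot muscle at least 0.5 above all 3 sections, a limit that leaves the order of the sections free. Their mean level lay between -0.71 and -0.64 on immature arrays, -0.53 and -0.44 on iron arrays, -0.05 and 0.12 on calcium arrays, and 0.84 and 1.04 on foot muscle arrays. All 4 calcium arrays lay above all 8 immature and iron arrays in 10 of the 19, against 15.2% of all sequences. Foot muscle arrays correlated across all sequences with calcium arrays at 0.792 to 0.818, with iron at 0.660 to 0.684 and with immature at 0.612 to 0.642. Calcium arrays were closer to iron arrays than to foot muscle, at 0.830 to 0.850. Whether muscle in the dissected calcium section takes part in the levels of the 10 was not tested.

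By likeness over the 16 arrays, the sequences closest to PlateE-C4-5-SMART were Contig[0185], PlateD-G9-5-SMART and Contig[0149], at a Pearson r of 0.98, 0.97 and 0.97. All 3 are members. Next came PlateA-E4-5-SMART and PlateA-E2-5-SMART, at 0.95 and 0.94, with margins of 0.42 and 0.43 just under the limit. This likeness includes the tissue pattern on which the members were chosen.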

How the data were processed

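Trizol was used to extract the RNA, and a Kreatech ampULSe kit to label it with Cy5, per the labels' protocols. The deposited scanner tables give the mean and median foreground intensity of each spot, per the file headers, with no background. In the value table deposited by the authors, each value is a ratio, the spot's mean foreground over the mean of its array, as found by setting it against the scanner tables. The members and lists were chosen with earlier results of these data known.

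Values were log2-transformed, quantile-normalised and averaged over the probes of a sequence in R 4.3.3 with limma 3.58.1. A mean per tissue was fitted over 16 arrays with lmFit and eBayes (two-sided), with Benjamini-Hochberg adjustment over 493 sequences, or 2240 probes, and calls at an adjusted p under 0.05. The fit was tried on simulated data with independent noise for each sequence and array. That leaves out the deviations that sequences and same-numbered arrays share in the real data. P-values measure the spread between pools. All members are named, with the 3 closest sequences outside. Same-numbered immature and iron arrays deviated together (r 0.24 to 0.71 in 4 pairs), so that they can be treated as pairs. The main fit has no block, and its p-values and intervals leave this pairing out. The fit with the replicate number as a block is an alternative. Precision is limited by 4 arrays per tissue. Array medians were 200.1 to 426 scanner units, and 0 member spots were at the scanner maximum.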

Additional observations from a re-analysis of the deposited data

Results flagged for a closer look

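Among 40 groups of 4 arrays (10 sequences in 4 tissues), 3 had an array set apart from the other arrays of its group by more than Dixon's critical value for 4 values, as the gap over the range, where chance gives about 1 group in 20. PlateE-C4-5-SMART read 2.15 in iron replicate 1, below the other iron arrays at 2.44 to 2.49. Contig[0031] read 1.74 in foot muscle replicate 1, above the others at 1.50 to 1.54. PlateF-B3-5-SMART read 0.467 in iron replicate 1, above the others at 0.38 to 0.39. All 3 were arrays of replicate 1.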

How the results depend on the processing

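The number of sequences under the rule was 10. It was 0 with the scanner files as recorded, with or without normexp, 4 with a rise of 1, 6 with calcium and foot muscle within 0.25, and 6 to 13 with 1 array left out. Of the 10 themselves, 0 were kept with the recorded files, 5 under median scaling, 4 under loess, 6 with no further scaling, and 6 to 10 with 1 array left out, the 6 without calcium replicate 3. The 26 probes with no overlap of arrays became 0 with the recorded files, 6 under median scaling, 17 under 75th percentile scaling, 14 under loess, and 26 to 29 with 1 array left out. Members called by limma between iron and immature numbered 1, but 0 with the recorded files (0 at an unadjusted p under 0.05) and 0 under median scaling (1 unadjusted), and 1 with any array left out. Member probes called by limma numbered 3, but 0 with the recorded files (1 unadjusted, and 2 with normexp) and 0 under median scaling (3 unadjusted), 5 under loess, 5 with immature and iron arrays only, 7 with array weights, 8 with the replicate block, and 3 to 4 with 1 array left out. The block changed no call of a member sequence. With the recorded files, margins turned to -0.0337 and, with normexp, -0.0475 for Contig[0031], -0.00676 and -0.0169 for Contig[0149], -0.0268 and -0.0335 for PlateB-E1-5-SMART, -0.0364 and -0.0462 for PlateF-B3-5-SMART, and -0.0541 and -0.0624 for PlateC-C4-5-SMART. Iron minus immature of PlateC-A5-5-SMART turned to -0.359 and -0.396. It was called in 28 of the 29 other settings, at 0.384 to 0.636 and a limma adjusted p of 2.91e-05 to 0.0337, and not under median scaling (0.122). Over all sequences, 149 calls became 58 and 57 with the recorded files, 98 under 75th percentile scaling and 96 with no further scaling. Under these last scalings the median sequence itself rose by 0.27 in calcium and foot muscle, and it fell by 0.13 from immature to iron under 75th percentile scaling. Set against the value table, the recorded files exchange immature and calcium replicates 2 and 4. No test was run on which source is right, but arrays within each of these tissues all correlated closely only under the value table. The cause of the other shifts was not tested. No background readings were used, so how far background enters the levels of dim probes was not tested.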
